A study of Mus musculus with 6 samples.

Results

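The genes described here encode the liver's conjugating enzymes, namely the UDP-glucuronosyltransferases (UGT), the sulfotransferases (SULT) and the glutathione S-transferases (GST). Within these families the members were taken by symbol, as every protein-coding gene of the expression table whose symbol begins with Ugt1, Ugt2 or Ugt3, with Sult and a digit, with Gst followed by the class letter a, k, m, o, p, t or z and a digit, or with Mgst and a digit. This gave 67 of the 51912 genes in the table, of which 21 are UGT, 21 are SULT and 25 are GST genes. Liver RNA came from 21-day-old C57/B6 mice nursed by mothers given triclosan (TCS), an antimicrobial compound, or by mothers given vehicle. By the methods the mothers were fed so while pregnant as well as while nursing, so exposure before birth is not separated from exposure through milk. There were 3 RNA samples from TCS mice and 3 from vehicle mice, and by the study's methods each sample pooled 3 mice, so that 9 mice stood behind each group. The labels give 120 ppm TCS in the breastmilk, whereas the methods place that amount in the chow of the mothers, and vehicle mothers received chow with DMSO and water. All animals were wild type, and neither the labels nor the methods tell which litters entered which pool. The spread between samples is therefore a spread between pools.

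Conjugation is the second step by which the liver clears drugs, pollutants and its own steroids, bile acids and bilirubin. UGT enzymes sit in the endoplasmic reticulum and attach glucuronic acid from UDP-glucuronic acid, SULT enzymes are cytosolic and attach a sulfate group from the donor PAPS, and GST enzymes attach glutathione to reactive electrophiles. TCS itself is cleared as its glucuronide and its sulfate. Transcription of these families in liver is known to respond to the receptors CAR, PXR, AHR and PPARα and to the stress factor NRF2, and several members differ between male and female mice.

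Abundance was given in TPM, a length-corrected share, scaled to the same total in every sample, of the transcripts of one sample, so levels of different genes can be compared. The number of reads behind each value is unknown. Of the 67 genes, 63 had a value above 0 in at least 1 sample and 48 were tested, since 3 or more of the 6 samples held 1 TPM or more (14 UGT, 12 SULT and 22 GST). The test was limma's moderated test on log2(TPM + 1), fitted on all 13325 genes that passed the same filter, with the Benjamini-Hochberg adjustment over all of them and an adjusted p under 0.05 as threshold. An exact permutation test of 3 against 3 samples cannot give a p below 0.1, so a call rests on the spread that limma estimated across genes. Over all genes tested, the log2 fold change (TCS over vehicle) had a median of 0.13, and a value near it is no change relative to the other genes.

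In the 13325 genes, 11 (0.0826%) passed the threshold as higher and 12 (0.0901%) as lower in TCS livers, or 10 and 18 after median-of-ratios rescaling and 8 and 20 after quantile normalization. Of the 48 conjugating enzyme genes, 1 was among the higher ones, Ugt2b35, and 0 were among the lower ones by limma. At an unadjusted p under 0.05, 22 of the 48 were higher and 4 were lower, against 19.5% higher and 3.5% lower over all genes. With TPM rescaled by median-of-ratios factors, which brought the median of all genes to 0.00, 13 of the 48 were higher and 7 were lower at an unadjusted p under 0.05, against 8.31% and 8.97% over all genes. The lowest TCS sample exceeded the highest vehicle sample for 19 of the 48, against 25.1% of all genes, and the highest TCS sample stayed under the lowest vehicle sample for 4 of the 48, against 4.61% of all genes. The 19 comprised 9 UGT, 9 GST and 1 SULT genes, and the 4 comprised 3 SULT and 1 GST genes.

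Hepatocyte markers stood far above those of any other cell type in all samples. The summed level of the 7 hepatocyte markers was 121984 to 125726 TPM in TCS livers and 141521 to 144595 TPM in vehicle livers, with none of the 7 past the threshold. The erythroid sum was 4224 to 4721 TPM in TCS and 4811 to 5236 TPM in vehicle livers. The intestine sum was 75.7 to 104 TPM in TCS and 58.7 to 64.0 TPM in vehicle livers. The sums of the other cell types overlapped. In bulk RNA fewer cells of a type and lower levels of its marker transcripts in each cell cannot be told apart. The part of these differences in the results was not tested. The 7 pancreatic acinar markers summed to 1.45 to 665.1 TPM in TCS samples and 81.1 to 599.4 TPM in vehicle samples, with none at 0 throughout. Xist, the RNA that coats the inactive X chromosome of females, was at 0.0144, 98.7 and 44.0 TPM in the TCS samples and at 46.4, 1.80 and 88.3 TPM in the vehicle samples, although the methods describe male mice. The Y-linked Ddx3y was at 31.9, 11.6 and 24.8 TPM in the TCS samples and at 24.6, 34.7 and 12.2 TPM in the vehicle samples, highest in each group where Xist was lowest. Both groups therefore held samples with much and with little Xist.

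**Figure D1:**
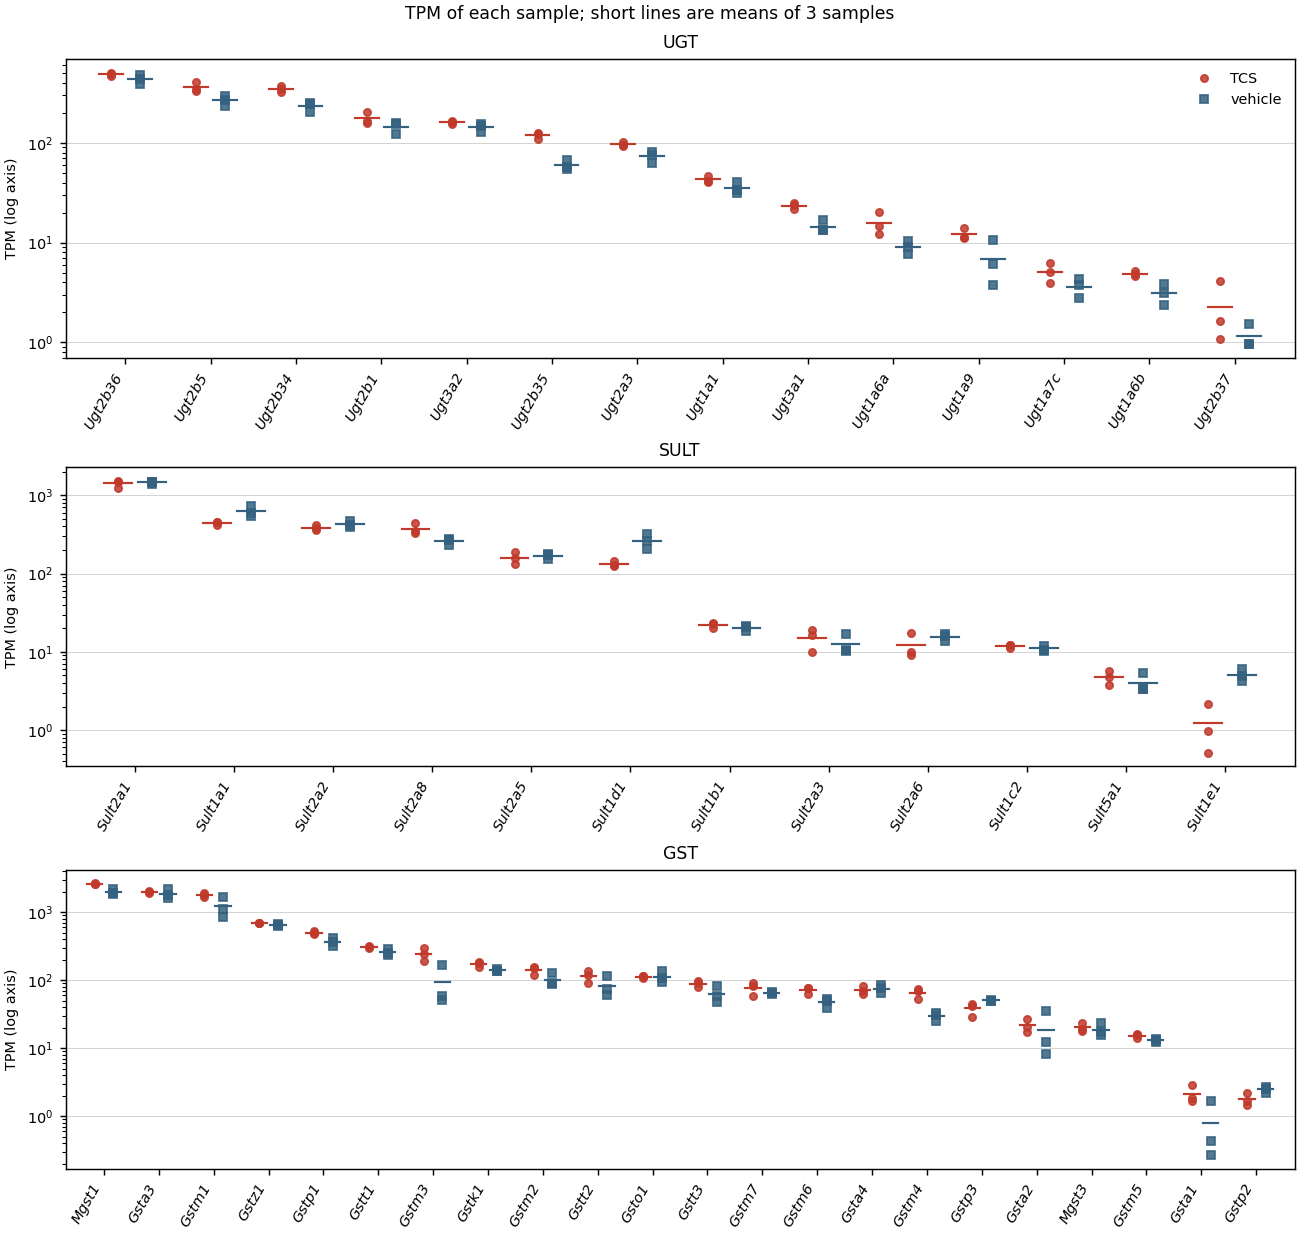
TPM (log axis) of each of the 48 conjugating enzyme genes tested, with TCS samples as circles and vehicle samples as squares and the mean of 3 samples as a short line. Members range from about 1 TPM (Ugt2b37, Sult1e1, Gsta1, Gstp2) to over 1000 TPM (Sult2a1, Mgst1, Gsta3, Gstm1), and the UGT panel shows TCS means above vehicle means for all 14 genes.

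All 14 UGT genes tested had a positive log2 fold change, against 74.8% of all genes, and 1 passed the threshold. The 14 values also exceeded the median of all genes, with a median of 0.47 (0.35 after rescaling) and a range of 0.17 to 1.00. Summed over the 21 UGT genes, the level was 1831, 1768 and 2001 TPM in the TCS samples against 1271, 1519 and 1517 TPM in the vehicle samples, with no overlap and a ratio of means of 1.30. The sum was carried by few genes, since the 4 most abundant members, Ugt2b36, Ugt2b5, Ugt2b34 and Ugt2b1, made up 73.9% of it in TCS livers and 75.4% in vehicle livers. Without Ugt2b36 the ratio was 1.38.

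Ugt2b35 was the one member that passed the threshold. It belongs to the UGT2B subfamily, whose enzymes glucuronidate steroids, fatty acids and drugs. It had 126 and 110 TPM in TCS replicates 1 and 2, with replicate 3 between them, and 57.0, 54.7 and 67.3 TPM in the vehicle samples. The lowest TCS sample was well above the highest vehicle sample, and the mean was 119.7 ± 8.50 TPM over TCS samples and 59.7 ± 6.71 TPM over vehicle samples (SD, n = 3 each). In the fit it gained 1.00 ± 0.10 on the log2 scale (standard error, adjusted p = 0.0353 by limma, rank 14 of all genes by p). Its share of the UGT sum was 6.42% ± 0.403 in TCS livers and 4.17% ± 0.496 in vehicle livers. The call was lost with the Xist level as a covariate (log2 fold change 1.00, adjusted p = 0.0741 from limma), without the filter on low values (adjusted p = 0.0899), after quantile normalization (adjusted p = 0.0516) and without any one of the TCS samples or of vehicle replicates 1 and 2 (log2 fold changes 0.94 to 1.05, adjusted p 0.0537 to 0.133 from limma). None of its 75-base transcript windows was found in another gene's transcripts. How reads were turned into its TPM values is not given in the sources used here.

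None of the 4 abundant Ugt2b neighbours passed the threshold, and their difference from Ugt2b35 was not tested. Ugt2b34 had 349, 328 and 370 TPM in the TCS samples and 204, 245 and 251 TPM in the vehicle samples (log2 fold change 0.58, adjusted p = 0.0814 from limma). Ugt2b5 had 332, 347 and 406 TPM in the TCS samples and 237, 267 and 297 TPM in the vehicle samples (log2 fold change 0.44, adjusted p = 0.116 from limma). Neither overlapped between the groups and neither passed the threshold, and 30.4% of the Ugt2b5 windows were shared with other genes. Ugt2b36, the most abundant UGT, had 493, 474 and 507 TPM in the TCS samples and 391, 475 and 441 TPM in the vehicle samples, which overlapped (log2 fold change 0.18, adjusted p = 0.263 from limma, and 0.024 after rescaling). Ugt2b1 also overlapped, with 166, 159 and 205 TPM in the TCS samples and 124, 160 and 154 TPM in the vehicle samples. The order of the 4 most abundant UGT genes was Ugt2b36, Ugt2b5, Ugt2b34 and Ugt2b1 in both groups, and the sample ranges of Ugt2b5 and Ugt2b34 overlapped in both.

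Among the other subfamilies, Ugt1a genes share their last exons and differ in the first, and 51.2% to 74.8% of the windows of the 5 tested were shared, so their split is uncertain. Summed over the 9 Ugt1a genes, which lie on chromosome 1 of GRCm38 from 88055388 to 88220002, the level was 80.5, 78.4 and 89.4 TPM in the TCS samples against 51.3, 66.1 and 60.2 TPM in the vehicle samples, with no overlap and a ratio of 1.40. How reads of the shared exons were assigned is not given in the sources used here, and since the transcripts differ in length the sum depends on it too. Ugt1a1, the enzyme that conjugates bilirubin, had 46.8, 40.9 and 41.5 TPM in the TCS samples and 31.6, 40.2 and 33.6 TPM in the vehicle samples (log2 fold change 0.29, adjusted p = 0.189 from limma). Its lowest TCS sample was just above its highest vehicle sample. Ugt1a6a, which acts on small planar phenols, had 12.1, 14.6 and 20.4 TPM in the TCS samples and 7.70, 9.12 and 10.3 TPM in the vehicle samples (log2 fold change 0.71, adjusted p = 0.125 from limma). Ugt1a9 had 11.2, 11.5 and 14 TPM in the TCS samples and 3.79, 10.5 and 6.14 TPM in the vehicle samples, with vehicle replicate 2 close to the TCS range (log2 fold change 0.85, adjusted p = 0.178 from limma). Ugt1a6b did not overlap either (log2 fold change 0.53, adjusted p = 0.127 from limma).

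Ugt3a1, which in humans transfers N-acetylglucosamine in place of glucuronic acid, had 23.7, 21.7 and 24.8 TPM in the TCS samples and 13.3, 16.8 and 13.4 TPM in the vehicle samples. The groups did not overlap, and the fitted log2 difference was 0.66 (adjusted p = 0.0814 from limma). Its neighbour Ugt3a2 on chromosome 15, named after its values were seen, was more abundant in every sample. It had 163, 154 and 167 TPM in the TCS samples and 128, 156 and 148 TPM in the vehicle samples, which overlapped. Ugt2a3, also named after its values were seen, had 95.5, 94.0 and 103 TPM in the TCS samples and 63.5, 76.4 and 81.9 TPM in the vehicle samples. The 7 UGT genes that were not tested, Ugt1a2, Ugt1a5, Ugt1a8, Ugt1a10, Ugt2a1, Ugt2a2 and Ugt2b38, stayed at or below 1.55 TPM in every sample, and Ugt2a1 was listed at 0 throughout.

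**Figure D2:**
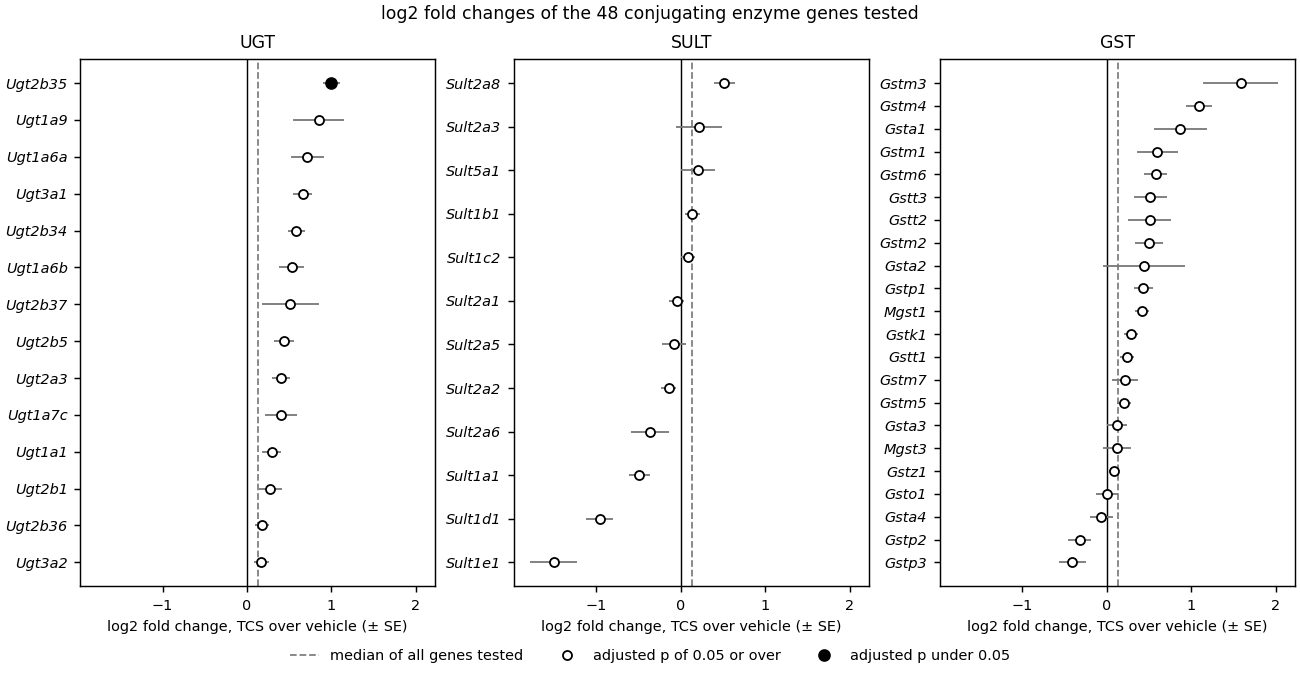
log2 fold change of TCS over vehicle on the log2(TPM + 1) scale with its standard error for the 48 genes tested, by family, with the median of all 13325 genes (0.13) as a dashed line and the gene with an adjusted p under 0.05 as a filled circle. All 14 UGT genes lie right of the dashed line, Sult1a1, Sult1d1 and Sult1e1 lie farthest left, and Gstm3 and Gstm4 lie farthest right among GST genes.

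The SULT genes were split in direction. Of the 12 tested, 5 had a positive and 7 a negative log2 fold change, with a median of -0.06 (-0.22 after rescaling). The SULT sum overlapped between the groups, with 2740, 3138 and 3070 TPM in the TCS samples and 3095, 3538 and 3184 TPM in the vehicle samples, a ratio of 0.91. Sult2a1 alone made up 47.4% ± 1.62 of this sum in TCS livers and 44.7% ± 2.21 in vehicle livers. Without Sult2a1 the sum was 1490.1, 1608 and 1600.1 TPM in the TCS samples and 1705, 2038 and 1694 TPM in the vehicle samples, so that every TCS sample lay below every vehicle sample (ratio 0.864). The Sult1 sum was 624, 614 and 592 TPM in the TCS samples against 895, 1091 and 785 TPM in the vehicle samples, a ratio of 0.66 with no overlap, whereas the Sult2 sum overlapped and had a ratio of 1.01. The difference between the subfamilies itself was not tested.

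Sult1e1, the estrogen sulfotransferase, had 2.17, 0.985 and 0.515 TPM in the TCS samples and 5.97, 4.26 and 4.95 TPM in the vehicle samples. All 3 TCS samples were below all 3 vehicle samples, with a mean of 1.22 ± 0.853 TPM over TCS samples and 5.06 ± 0.860 TPM over vehicle samples (SD, n = 3 each). The fitted log2 fold change, -1.51 with a standard error of 0.28 (adjusted p = 0.0866 from limma), did not pass the threshold and, on the log2(TPM + 1) scale, understates the ratio of means of 0.242. Sult1d1, which in mice sulfates catecholamines, had 130, 124 and 143 TPM in the TCS samples and 263, 316 and 205 TPM in the vehicle samples. It was far more abundant than Sult1e1 and likewise did not overlap, and its log2 fold change was -0.96 ± 0.16 (standard error, adjusted p = 0.0814 by limma). Sult1a1, the phenol sulfotransferase, had 458, 457 and 413 TPM in the TCS samples and 597, 739 and 542 TPM in the vehicle samples, with no overlap (log2 fold change -0.49, adjusted p = 0.111 from limma). The remaining Sult1 genes tested, Sult1b1 and Sult1c2, lay close to the median of all genes at log2 fold changes of 0.14 and 0.09, and Sult1c1 was listed at 0 in all samples.

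Sult2 enzymes sulfate hydroxysteroids and bile acids. Sult2a8, which in mice sulfates bile acids, had 334, 347 and 439 TPM in the TCS samples and 231, 272 and 276 TPM in the vehicle samples. It was the one tested SULT gene whose TCS samples all exceeded its vehicle samples (log2 fold change 0.52, adjusted p = 0.110 from limma). Sult2a1, the most abundant SULT gene, had 1250, 1530 and 1470 TPM in the TCS samples and 1390, 1500 and 1490 TPM in the vehicle samples, which overlapped (log2 fold change -0.05, standard error 0.09, with the sign turned by array weights and without TCS replicate 1). Sult2a2 overlapped as well, with 361, 418 and 382 TPM in the TCS samples and 395, 467 and 421 TPM in the vehicle samples. Sult2a2 shared 47.2% of its windows with other genes and Sult2a1 shared 19.5%, so their separation is uncertain, whereas 0.21% of the Sult2a8 windows were shared. Sult2a3, Sult2a5 and Sult2a6 had log2 fold changes of 0.22, -0.08 and -0.37 with overlapping groups.

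Of the 9 SULT genes not tested, Sult1c1, Sult6b1 and Sult6b2 were listed at 0 in all 6 samples. Sult2a4, Sult2b1, Sult3a2 and Sult4a1 stayed below 1 TPM in every sample. Sult3a1, named after its values were seen, reached 2.16, 0.595 and 3.38 TPM in the TCS samples and 0.265, 0.262 and 0.770 TPM in the vehicle samples. Its groups overlapped, and 2 of the 6 samples reached 1 TPM, fewer than the filter asks for. Sult2a7 had 1.36, 0.428 and 0.338 TPM in the TCS samples and 0.0748, 0.178 and 0.183 TPM in the vehicle samples, with no overlap. Sult5a1, the one tested gene outside Sult1 and Sult2, had a log2 fold change of 0.20 and overlapping groups.

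**Figure D3:**
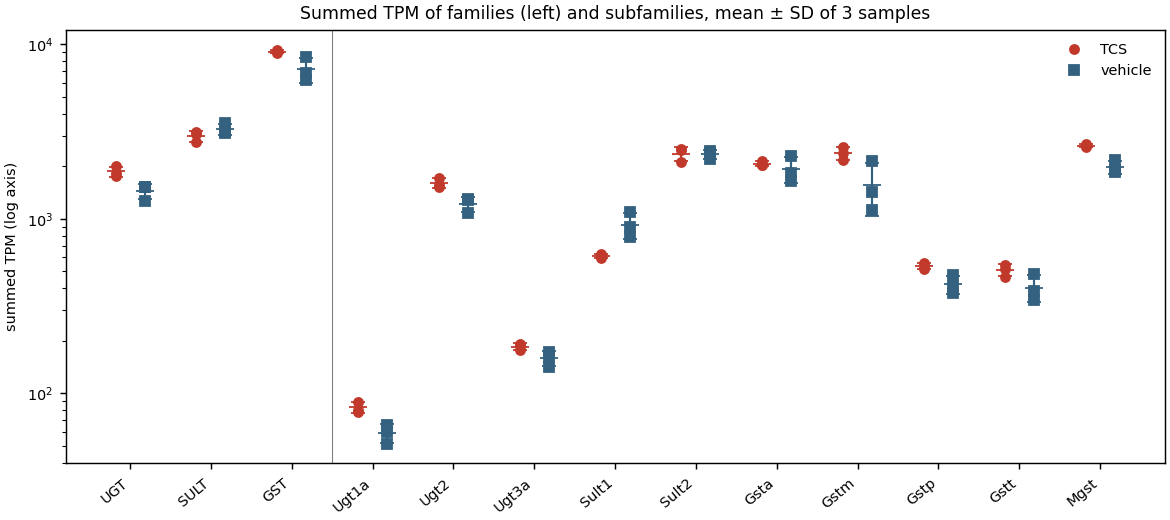
Summed TPM (log axis) of the 3 families, left of the line, and of 10 subfamilies, with TCS samples as circles, vehicle samples as squares and bars as the mean ± SD of 3 samples. The UGT and GST sums lie higher in TCS samples (ratios 1.30 and 1.27), the Sult1 sum lies lower (ratio 0.66), and the vehicle samples of Gstm spread more than the TCS samples.

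Genes with positive and negative fold changes lay side by side on the genome. On chromosome 5 of GRCm38, from 86889767 to 87591594, 13 of the conjugating enzyme genes stand in a row, with Ugt2b34, Ugt2b1, Ugt2b35, Ugt2b36, Ugt2b5, Ugt2b37, Ugt2a3, Ugt2b38 and the overlapping Ugt2a2 and Ugt2a1 followed by Sult1b1, Sult1d1 and Sult1e1. Ugt2b35 lies on the plus strand from 87000860 to 87013275 and all the others lie on the minus strand. The 7 UGT genes tested there had log2 fold changes of 0.18 to 1.00, Sult1b1 had 0.14, and Sult1d1 (87554645 to 87569027) and Sult1e1 (87575969 to 87591594) had -0.96 and -1.51.

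**Figure D4:**
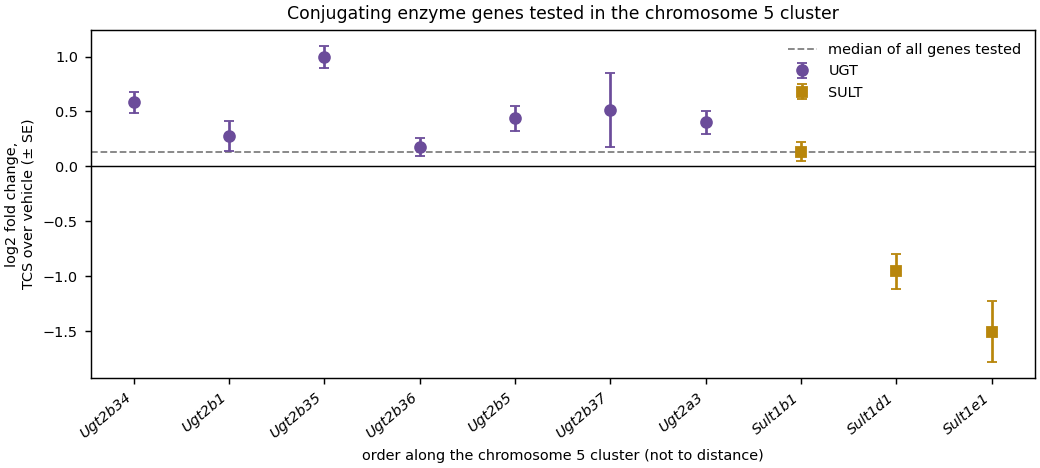
log2 fold change of TCS over vehicle with its standard error for the 10 genes tested in the chromosome 5 cluster, in their order along the chromosome and not to distance. The 7 UGT genes are positive, Sult1b1 lies at the median of all genes (dashed line, 0.13), and Sult1d1 and Sult1e1 lie at -0.96 and -1.51.

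The sequence just before the start site is shown for neighbours with positive and negative fold changes, since nuclear receptors such as CAR, PXR and PPARα bind letters of the kind AGGTCA. Each line gives 120 bases upstream of the RefSeq start (GRCm38.p6), 5′ to 3′ on the gene's strand, with AGGTCA or its reverse complement in capitals where they occur.
Ugt2b35 (chr5:87000740-87000859, plus strand): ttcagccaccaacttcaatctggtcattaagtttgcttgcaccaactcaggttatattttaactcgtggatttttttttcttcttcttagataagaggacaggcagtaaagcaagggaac
Ugt2b36 (chr5:87092556-87092675, minus strand): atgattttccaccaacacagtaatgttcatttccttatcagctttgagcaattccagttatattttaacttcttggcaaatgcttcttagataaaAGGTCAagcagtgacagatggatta
Ugt2b5 (chr5:87140341-87140460, minus strand): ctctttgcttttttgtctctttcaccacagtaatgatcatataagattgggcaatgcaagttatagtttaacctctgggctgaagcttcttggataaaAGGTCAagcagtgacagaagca
Sult1d1 (chr5:87569007-87569126, minus strand): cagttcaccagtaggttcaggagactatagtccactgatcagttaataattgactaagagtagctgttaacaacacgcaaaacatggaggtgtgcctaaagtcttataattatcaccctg
Sult1e1 (chr5:87591612-87591731, minus strand): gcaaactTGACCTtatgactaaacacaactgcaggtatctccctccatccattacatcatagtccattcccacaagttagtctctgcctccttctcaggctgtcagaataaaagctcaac

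The letters start 25 bases before the start site in Ugt2b36, 22 in Ugt2b5 and, on the other strand, 113 in Sult1e1. The 120 bases shown for Ugt2b35 and Sult1d1 do not hold them, but in Ugt2b35 they start 215 bases before the start site, beyond the bases shown. In the bases shown, the match was thus seen before genes with log2 fold changes of 0.18 and 0.44 and before a gene with -1.51. Of the genes tested in this cluster but not shown, Ugt2b37 (0.51) and a start of Sult1b1 (0.14) held it within 250 bases. Ugt2b34 (0.58), Ugt2a3 (0.40) and Ugt2b1 (0.27) did not. The Ugt2b genes are copies of each other, so their matches are not independent. In the 250 bases upstream, searched on both strands, AGGTCA was found in 11 of the 71 windows of the 59 conjugating enzyme genes with a RefSeq promoter (15.5%) and in 14% of the 32851 windows of all genes. The core TGACNNNGC of NRF2 was found in 4 of the 71 windows against 10.2% of all, the core GCGTG of AHR in 12 against 28.2%, and the C/EBP letters TTGCNNAA in 11 against 9.56%. Matches of different motifs may overlap. A match is a string of letters and not a bound site.

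None of the 22 GST genes tested passed the threshold with limma, and Gstm3 and Gstm4 of the Mu class (Gstm) had the highest log2 fold changes on the log2(TPM + 1) scale. Of the 22, 19 had a positive and 3 a negative log2 fold change, against 74.8% positive over all genes, with a median of 0.35 (0.20 after rescaling), and 15 exceeded the median of all genes. The sum over the 25 GST genes was 8979, 9292 and 9032 TPM in the TCS samples against 6231, 8507 and 6818 TPM in the vehicle samples, a ratio of 1.27 with no overlap. Without Mgst1, the most abundant member, the sums overlapped at a ratio of 1.24. At an unadjusted p under 0.05, 12 were higher and 1 was lower (54.5% and 4.55%, against 19.5% and 3.5% over all genes). After median-of-ratios rescaling 5 were higher and 2 were lower (22.7% and 9.09%, against 8.31% and 8.97% over all genes).

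All 7 Gstm genes, which detoxify epoxides and other electrophiles and stand on chromosome 3 from 107895821 to 108044894, had log2 fold changes above the median of all genes, with a median of 0.58. Gstm4 had 52.9, 73.2 and 68.8 TPM in the TCS samples and 25.2, 33.2 and 31.2 TPM in the vehicle samples. The lowest TCS sample stood well above the highest vehicle sample, and at 1.09 ± 0.15 on the log2 scale (standard error, adjusted p = 0.0576 by limma) Gstm4 was the GST gene nearest to the threshold. Gstm3 had 191, 301 and 243 TPM in the TCS samples and 51.5, 167 and 58.2 TPM in the vehicle samples. Its log2 fold change of 1.59 was the largest of the 48 on the log2(TPM + 1) scale, but the vehicle samples spread widely (standard error 0.45, adjusted p = 0.130 from limma). Without vehicle replicate 2, its highest vehicle sample, Gstm3 passed the threshold (log2 fold change 2.12, standard error 0.19, adjusted p = 0.0437 from limma). It did not pass with any other single sample left out. Over the samples left out in turn, its log2 fold changes were 1.28 to 2.12 (adjusted p 0.0437 to 0.311 from limma). Gstm1, the most abundant Mu class gene, had 1680, 1880 and 1750 TPM in the TCS samples and 834, 1690 and 1120 TPM in the vehicle samples, and overlapped by that same vehicle sample (log2 fold change 0.60, adjusted p = 0.207 from limma).

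Gstm6 had 62.4, 76.3 and 75.3 TPM in the TCS samples and 39.3, 53.4 and 50.1 TPM in the vehicle samples, with no overlap (log2 fold change 0.58, adjusted p = 0.106 from limma). Gstm2, Gstm5 and Gstm7, named to complete the class after their values were seen, had log2 fold changes of 0.50, 0.21 and 0.21. Gstm3 shared 21.6% and Gstm1 11.7% of its windows with other genes, and Gstm4 shared none. The Gstm sum was 2180, 2591 and 2385 TPM in the TCS samples and 1115, 2144 and 1431 TPM in the vehicle samples. The ratio was 1.53, and 1.87 against vehicle replicates 1 and 3 alone, which leaves out the highest vehicle sample.

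Vehicle replicate 2 was the highest vehicle sample for 18 of the 22 GST genes tested (81.8%), against 32.7% of all genes, 6 of the 14 UGT genes and 6 of the 12 SULT genes. The same sample was the highest vehicle sample for 4 of the 4 genes tested as CAR indicators and 6 of the 6 for PPARα. It was so for 2 of the 4 for PXR, 1 of the 2 for AHR and 2 of the 7 for NRF2. Of these genes, 3 in which it was the highest vehicle sample are given here, chosen after their values were seen. In others it was not, such as Cyp3a16 of the PXR list, with 161, 68.5 and 98.0 TPM in vehicle replicates 1, 2 and 3. Cyp2b10, a target of CAR, was at 68.3, 105 and 87.7 TPM in the TCS samples and at 4.03, 34.9 and 7.60 TPM in the vehicle samples. Cyp3a11, a target of PXR, was at 3040, 3880 and 4100 TPM in the TCS samples and at 1050, 2790 and 1010 TPM in the vehicle samples. Acot1, a target of PPARα, was at 35.5, 62.3 and 83.3 TPM in the TCS samples and at 8.19, 60 and 9.84 TPM in the vehicle samples. The part of whatever sets this sample apart in the results was not tested beyond leaving it out. Without it limma called 22 genes (0.165%) higher and 7 (0.0525%) lower, among them 1 conjugating enzyme gene higher (Gstm3 in place of Ugt2b35) and 0 lower.

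**Figure D5:**
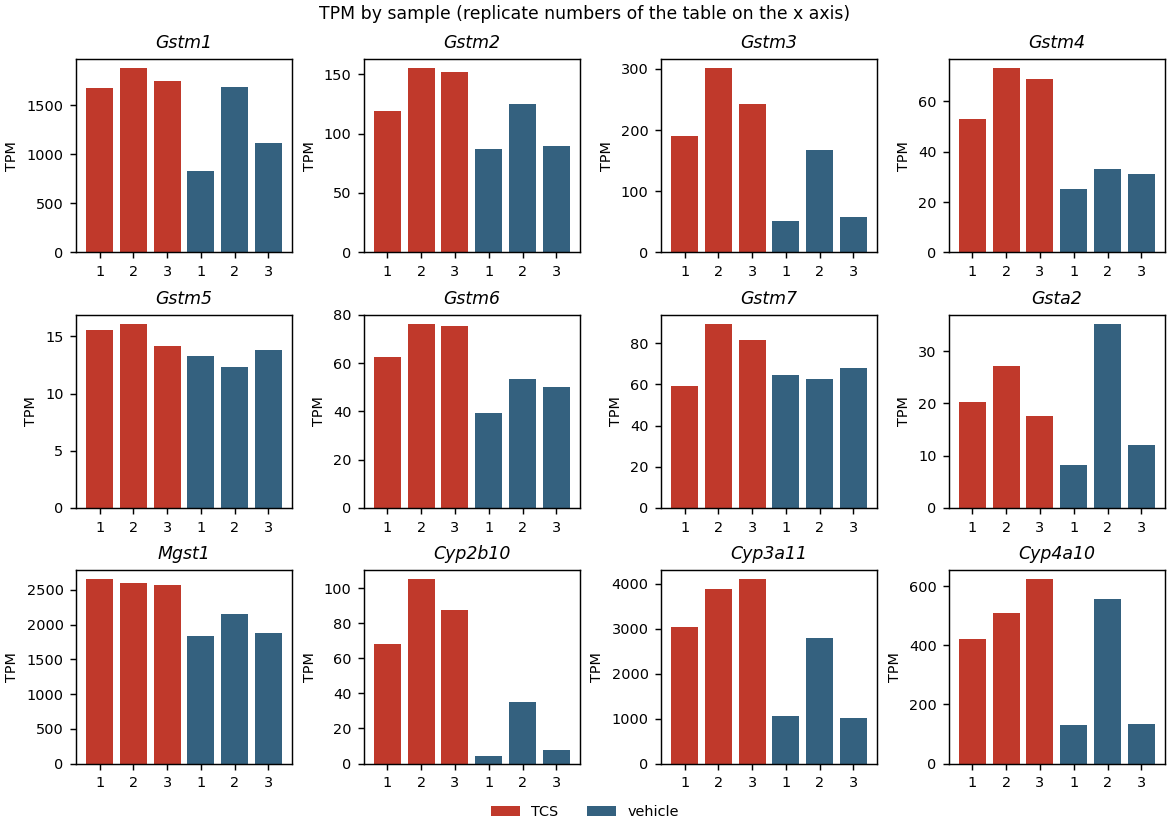
TPM of the 7 Gstm genes, Gsta2, Mgst1 and 3 receptor target genes in each sample, with bars for TCS samples 1 to 3 at the left and vehicle samples 1 to 3 at the right of each panel. Vehicle sample 2 stands above the other vehicle samples for Gstm1, Gstm3, Gsta2, Cyp2b10, Cyp3a11 and Cyp4a10, but hardly for Gstm4 and not for Gstm5 or Gstm7.

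Outside the Mu class, Mgst1, a membrane enzyme of the endoplasmic reticulum and the outer mitochondrial membrane, had 2650, 2600 and 2570 TPM in the TCS samples and 1830, 2150 and 1880 TPM in the vehicle samples. It was the most abundant of the 67 genes in both groups, and its groups did not overlap (log2 fold change 0.42, standard error 0.08, adjusted p = 0.0866 from limma). Gsta3, the Alpha class enzyme known for detoxifying aflatoxin epoxide in mice, was second with 2060, 1930 and 1940 TPM in the TCS samples and 1580, 2160 and 1750 TPM in the vehicle samples, which overlapped (log2 fold change 0.12, and -0.030 after rescaling). Gsta1 was low, with 1.86, 2.89 and 1.67 TPM in the TCS samples and 0.427, 1.67 and 0.269 TPM in the vehicle samples (log2 fold change 0.87, or 1.64 at a pseudocount of 0.1, adjusted p = 0.175 and 0.188 from limma), and shared 84.7% of its windows with other genes. Gstt3 of the Theta class had 79.6, 96.0 and 90.7 TPM in the TCS samples and 47.6, 83.0 and 58.8 TPM in the vehicle samples (log2 fold change 0.52, adjusted p = 0.196 from limma), with vehicle replicate 2 within the TCS range.

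Gstz1, which isomerizes maleylacetoacetate in tyrosine breakdown, had 686, 688 and 691 TPM in the TCS samples and 630, 671 and 646 TPM in the vehicle samples. The groups did not overlap, but the log2 fold change of 0.09 lay below the median of all genes and was -0.068 after rescaling (adjusted p = 0.387 from limma without rescaling). The Pi class was split, as seen once its values were known. Gstp1 had 524, 473 and 489 TPM in the TCS samples and 361, 421 and 321 TPM in the vehicle samples (log2 fold change 0.44, adjusted p = 0.110 from limma). Gstp3 had 28.6, 41.8 and 44.8 TPM in the TCS samples and 49.9, 49.8 and 51.0 TPM in the vehicle samples (log2 fold change -0.40, adjusted p = 0.211 from limma). Gstp3 was the one GST gene with all TCS samples below all vehicle samples, and Gstp2 overlapped at 1.48 to 2.21 TPM in TCS and 2.21 to 2.66 TPM in vehicle. The 3 lie next to each other on chromosome 19, and 29.2% of the Gstp1 windows and 50.1% of the Gstp2 windows were shared with other genes.

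Of the remaining GST genes, Gstk1 of peroxisomes and mitochondria and Gstt1 had log2 fold changes of 0.29 and 0.24 with no overlap (adjusted p = 0.127 for Gstk1 from limma). Gsta4, the enzyme for the lipid peroxidation product hydroxynonenal, and Gsto1, which reduces dehydroascorbate, had -0.06 and 0.01. Gsta2 overlapped, with 20.3, 27.2 and 17.5 TPM in the TCS samples and 8.30, 35.2 and 12.1 TPM in the vehicle samples, and Gstt2 and Mgst3 overlapped at log2 fold changes of 0.51 and 0.12. Gsto2, Gstt4 and Mgst2 were not tested and stayed at or below 1.44 TPM.

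The genes that supply the cosubstrates were read as lists of their own. Of 7 genes that make or move UDP-glucuronic acid, 0 passed the threshold with limma, and 3 were higher and 1 was lower at an unadjusted p under 0.05 (median log2 fold change 0.29). For this and the following lists, the shares over all genes at that p were 19.5% higher and 3.5% lower, or 8.31% and 8.97% after rescaling. Slc35d1, which carries UDP-glucuronic acid into the endoplasmic reticulum, had 29.3, 23.6 and 28.2 TPM in the TCS samples and 18, 16.9 and 19.2 TPM in the vehicle samples (log2 fold change 0.55, adjusted p = 0.0866 from limma). Ugdh, which makes UDP-glucuronic acid, had 50.6, 59.6 and 70.7 TPM in the TCS samples and 29.0, 44.3 and 41.6 TPM in the vehicle samples (log2 fold change 0.65, adjusted p = 0.133 from limma). Both were higher in all TCS samples than in all vehicle samples.

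Of the 9 genes tested for the supply of sulfate and PAPS, 1 passed the threshold, as lower. This was Cdo1, which oxidizes cysteine on the way to sulfate and taurine, with 1040, 1030 and 964 TPM in the TCS samples and 1490, 1490 and 1430 TPM in the vehicle samples (log2 fold change -0.54, standard error 0.06, adjusted p = 0.0469 from limma). The Cdo1 call was kept in 4 of 15 alternatives and lost without any one of the 6 samples (log2 fold changes -0.56 to -0.51, adjusted p 0.0649 to 0.179 from limma). The list's median was 0.06, and Papss2, which makes PAPS in liver and was named after its values were seen, overlapped at 129 to 158 TPM in TCS and 100 to 146 TPM in vehicle. Of the 11 genes tested in the list for glutathione supply and recycling, 0 passed the threshold with limma (median 0.28). At an unadjusted p under 0.05, 3 were higher and 1 was lower. The list also held the transporters Abcc2 and Abcc3. Abcc3 was 1 of the 3 higher genes, with a log2 fold change of 0.72 and overlapping groups. Gclc, the catalytic subunit of the enzyme that limits glutathione synthesis, had 102, 98.6 and 116 TPM in the TCS samples and 57.9, 77.6 and 80.0 TPM in the vehicle samples (log2 fold change 0.56, adjusted p = 0.110 from limma). Gsr, which regenerates glutathione, had 31.1, 33.5 and 35.3 TPM in the TCS samples and 23.8, 18.9 and 25.2 TPM in the vehicle samples (log2 fold change 0.55, adjusted p = 0.0978 from limma). Chac1, which breaks glutathione down, had 1.45, 2.19 and 2.88 TPM in the TCS samples and 4.95, 3.85 and 5.53 TPM in the vehicle samples (log2 fold change -0.88, adjusted p = 0.1001 from limma). Gclc, Gsr and Chac1 did not overlap between the groups.

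Of 19 other conjugating and hydrolysing enzymes tested, 0 passed with limma, and 7 were higher and 1 was lower at an unadjusted p under 0.05, against 19.5% and 3.5% over all genes (median 0.27). Ephx1, the microsomal epoxide hydrolase, had 198, 195 and 241 TPM in the TCS samples and 73.7, 144 and 97.1 TPM in the vehicle samples (log2 fold change 1.05, adjusted p = 0.0994 from limma). Inmt, an amine methyltransferase, had a log2 fold change of 0.69, and Glyat, which conjugates glycine, had 0.35 (adjusted p = 0.1001 and 0.0932 from limma). All 3 were higher in every TCS sample than in any vehicle sample.

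Of the 18 regulators tested, 0 passed with limma, and 1 was higher and 1 was lower at an unadjusted p under 0.05, with a median of 0.11 that lay near that of all genes. Cux2, a transcription factor that in adult mouse liver is far higher in females, had 1.52, 2.37 and 6.25 TPM in the TCS samples and 7.22, 11.9 and 12.2 TPM in the vehicle samples (log2 fold change -1.50, adjusted p = 0.122 from limma). The part of the Xist differences between samples in this value was not tested. Keap1, the repressor of NRF2, and Nfe2l2, which encodes NRF2, had log2 fold changes of 0.26 and 0.21 (adjusted p = 0.146 and 0.241 from limma).

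Genes listed as indicators of the receptors and of NRF2 were read the same way, and a listed gene need not be a direct target. Of the 2 tested for AHR, 4 for CAR, 4 for PXR, 6 for PPARα and 7 for NRF2, 0 passed with limma. At an unadjusted p under 0.05, in that order, 0, 3, 1, 2 and 4 were higher and 0, 0, 1, 0 and 0 were lower. Their median log2 fold changes were 0.10 for AHR, 0.91 for CAR, 0.38 for PXR, 1.28 for PPARα and 0.54 for NRF2. For CAR, Cyp2b10 had a log2 fold change of 2.90 and Cyp2c29 had 1.29 (adjusted p = 0.104 and 0.0576 from limma), and Cyp2b13 had 0.52. For PXR, Cyp3a11 had a log2 fold change of 1.34, Cyp3a16 had -0.90 and Cyp3a41a had 0.82, and the groups overlapped for Cyp3a16 and Cyp3a41a. For PPARα, Ehhadh and Vnn1 had log2 fold changes of 1.31 and 1.39 with no overlap, and Acot1 had 1.67 with overlap. Cyp4a10, Cyp4a14 and Pdk4, named after their values were seen, overlapped at 1.25, 0.70 and -0.36. For NRF2, Txnrd1 and Srxn1 had 0.54 and 0.63 with no overlap. Gclm, G6pdx and Hmox1, likewise named after their values were seen, overlapped at 0.23, 0.28 and -0.09. For AHR, Cyp1a2 and Tiparp had 0.24 and -0.04.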

How the data were processed

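Liver RNA of 3 TCS and 3 vehicle samples was analysed. The submitters' processing notes name bcl2fastq (2.17.1.14), STAR (2.2.0c) and HOMER, and the authors kept unique alignments to mm10 (GRCm38). The authors deposited TPM values rounded to 3 significant digits, and the step that made them from reads is not given in the sources used here. TPM carries no depth, so no counting error is given. The table's columns name group and a number from 1 to 3, which pairs no samples. A deposited table of the authors' own comparison was not used.

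Genes that 3 or more of the 6 samples held at 1 TPM or more were tested with R 4.3.3 and limma 3.58.1 on log2(TPM + 1), with a trend of variance, two-sided and Benjamini-Hochberg adjusted over all 13325. Alternatives were a pseudocount of 0.1, other filters and scalings, limma without the trend or with array weights, protein-coding genes alone, Xist as a covariate, and each sample left out in turn. The families, and so the members that their symbols gave, and the gene lists were chosen with earlier results of these data known. Named were members past the threshold, in each family up to 6 of the largest log2 fold changes at an unadjusted p under 0.05 and the 4 most abundant, Sult1e1, and of each list the members past the threshold or else up to 3 with the smallest p. Others are said to be named after their values were seen. Some genes under this rule are not reported here. Positions are from GENCODE M21, promoters from RefSeq (GRCm38.p6), and 75-base windows of GENCODE transcripts gave the shares found in other genes.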

Additional observations from a re-analysis of the deposited data

How the results depend on the processing

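Of the conjugating enzyme genes, 1 was called higher and 0 lower. Counts of 0 higher were given without a filter (63 tested), by quantile normalization and with Xist as a covariate (48 tested in each). The filter at 5 TPM gave 2 higher of 41 tested. Protein-coding genes alone gave 4 higher and 2 lower of 48, and array weights gave 17 higher and 3 lower of 48. Leaving out 1 sample gave 0 to 1 higher and 0 to 0 lower. Over all genes, 11 were higher and 12 lower of 13325. No filter gave 0 and 0 of 28916, and the filter at 5 TPM gave 35 and 24 of 8774. Protein-coding genes alone gave 73 and 42 of 11647. Of 13325 genes, array weights gave 1006 and 234, and Xist as a covariate gave 1 and 3. Quantile normalization gave 20 lower. Leaving out 1 sample gave 0 to 22 higher and 0 to 13 lower. The cause was not tested, except that the filters change how many genes p is adjusted over and that leaving out a sample leaves fewer samples.

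Of the named members, the log2 fold change turned sign for Gsta3 (-0.030) and Gstz1 (-0.068) after median-of-ratios rescaling and for Sult2a1 with array weights (0.045) and without TCS replicate 1 (0.040, with -0.11 to 0.040 over the samples left out in turn). Those of Ugt2b35 were 0.84 to 1.08 over 15 alternatives, and it was called in 7 of them. Family medians relative to all genes kept their sign in every alternative. No paired analysis was possible because the replicate numbers of the columns cannot be tied to sample labels. Depth is unknown, so low members such as Sult1e1 and Gsta1 carry an error that the files do not give.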
